A study of Arabidopsis thaliana with 18 samples.

Results

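The larger proteins of the 60S subunit, the large subunit of the cytosolic ribosome, were followed here as mRNAs in 22 families of ribosomal proteins (r-proteins): L4, L5, L6, L7a, L8, L9, L10, L10a, L11, L12, L14, L15, L17, L18, L19, L21, L22, L23, L23a, L26, L27 and L27a. Members were taken by locus, as the array features (probe sets) that the array annotation assigns to the listed genes of these families, a rule that uses no measured value. The 57 member loci were read by 50 of the 22746 probe sets. Of these 50, 6 report a pair of near-identical members at once, and such a pair is given here as 1 value. The annotation used here names 56 of the loci, and RPL27aC (AT1G70600) is not analysed as a separate gene. The probe set of RPL27aB (AT1G23290) is of the kind that matches more than 1 transcript, so its values may include other members of that family. Whether these proteins are larger than the other r-proteins was not checked here, since no protein sequences were used.

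Arabidopsis carries several paralogous genes for nearly every r-protein, and each ribosome receives 1 copy from each family. Transcripts of r-proteins are among the most abundant of growing tissue and are known to move together, both in mRNA level and in the share that is engaged with ribosomes. RPL24B, the gene affected in the mutant, encodes an L24 protein of the same subunit. Plants without it are known for weak reinitiation after upstream open reading frames and for altered leaf and gynoecium shape. Several members studied here, among them RPL5A, RPL5B, RPL9C and RPL10aB, have themselves been found through mutants with altered leaves.

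Aerial parts of seedlings aged 10 to 12 days were compared between the rpl24b mutant (allele stv1-1, Ws ecotype) and WT plants, all grown on 1% sucrose at 22 °C in 16 h light and 8 h dark and taken 6 h into the light. The mutant lacks further genes beside RPL24B and carries a transgene for the MYB protein CAPRICE at that locus. The labels leave the WT ecotype open. The methods name Col-0 as wild type, but also say that this mutant grew beside its corresponding wild type. If WT is Col-0 here, strain and genotype cannot be told apart. From each of 3 plant samples per genotype, grown at different times with mutant and WT side by side, 3 preparations were hybridised to ATH1 arrays, namely polysomal RNA (PL), nonpolysomal RNA including monosomes (NP) and total RNA (TC), which makes 18 arrays in 6 groups of 3. All values are log2 signals. The translation state (TL) of a plant sample is its log2 PL signal minus its log2 NP signal, and a change is rpl24b minus WT. TL and changes may be compared between genes, since probe effects largely cancel in them, while signals of different probe sets may not. If WT is Col-0, a probe effect that differs between strains would not cancel in the TC, PL and NP changes.

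The mutant label was borne out by RPL24B (AT3G53020) itself, whose TC signal was 3.79, 3.63 and 3.44 in rpl24b plants, against 9.98, 10.11 and 10.26 in WT plants. That is a change of -6.50 ± 0.12 (SE, adjusted p = 2.88e-08) by limma over all probe sets. Its paralogs RPL24A (AT2G36620) and RPL24C (AT2G44860) had TC changes of 0.49 ± 0.13 (SE, adjusted p = 0.0329) and 1.01 ± 0.16 (SE, adjusted p = 0.00458). Median signals of the arrays lay between 5.34 and 5.41 for TC and between 4.90 and 5.07 for PL and NP, apart from 4.66 in the NP array of WT replicate 2. The number of arrays limits the precision. Of marker genes listed for other cell types, 1 of 6 for leaf, 5 of 9 for root and 1 of 10 for dividing cells had a named probe set. Rubisco activase (RCA) stood for leaf with a TC change of 0.02 ± 0.09 (SE, adjusted p = 0.931), and the mitotic kinase AUR1 for dividing cells with 0.34 ± 0.15 (SE, adjusted p = 0.163). Of 4 root probe sets 1, shared by the beta-glucosidases BGLU21 and BGLU22, passed the test (1.88 ± 0.30, SE, adjusted p = 0.00414). The beta-glucosidase PYK10, abundant in roots, had mean signals of 10.40 in rpl24b plants and 10.48 in WT plants. The TC change of PYK10 was -0.07 ± 0.13 (SE, adjusted p = 0.768). Those of EXPA7 and EXPA18 were 0.02 ± 0.13 (SE, adjusted p = 0.924) and -0.08 ± 0.10 (SE, adjusted p = 0.651). The median change over the 4 root probe sets was -0.02. Pooled over those 4 probe sets of unlike signal, the mean was 5.51 to 5.91 in rpl24b plants and 5.14 to 5.35 in WT plants. What these cell types contribute to the results was not tested.

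In rpl24b plants the mRNAs of the larger 60S proteins were more abundant and were found more in polysomes. All 50 probe sets had a higher mean TC signal in the mutant, with a median change of 0.45, and 32 of them rose (adjusted p under 0.05), among them RPL27A, RPL11B, RPL26B and RPL17A. Of all 22746 probe sets, 12871 had a higher mean TC signal in the mutant. Over all probe sets 8.40% rose and 7.91% fell in TC, and no member fell. In TL the mean was higher in the mutant for 46 of 50 members and for 9136 of all 22746 probe sets. The median change was 0.39 over members, against -0.06 over all probe sets. The test was passed by 3 members (6.00%), all upward: RPL5A, RPL10aC and RPL7aA. Upward and downward calls each made up 0.448% of all probe sets in TL, and no member passed downward. The difference between genotypes was thus broad and small per gene, and the SE of a TL change was 0.16 to 0.22.

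More members passed the test in PL than in NP, which compares counts and is no test of the difference between fractions. The test of that difference is the one on TL, which 3 members passed. In PL 45 of 50 members rose and none fell, where 10.8% of all probe sets rose and 7.87% fell, and the median change was 0.54. Rises of at least 2-fold that passed were reached by 2 members in TC, 4 in PL, 2 in NP and 0 in TL, and no falls. Of all 22746 probe sets, 340 rose and 321 fell by this measure in TC, and 390 and 266 in PL. In NP these were 479 and 310, and in TL 57 and 81. In NP 6 members rose and none fell, beside 5.21% and 3.39% of all probe sets, with a median change of 0.20. That median was 0.05 after centring of the arrays, and the median over all probe sets was 0.08 as deposited and -0.08 after centring. A higher mean in PL together with a lower mean in NP was seen in 15 members as deposited. This count depends on the scaling, since 34 members had a higher NP mean as deposited and 27 after centring. Of all 22746 probe sets, 13969 had a higher NP mean as deposited. How many of all probe sets have this pattern was not counted. Both TC and PL were passed by 31 members, PL alone by 14 and TC alone by 1 (RPL5A). Another 4 passed in neither, namely RPL6A (AT1G18540), RPL8B (AT3G51190), RPL23C (AT3G04400) and RPL27aB. The corresponding shares of all probe sets were not counted. In these bulk samples, a larger share of cells rich in r-protein mRNA cannot be told apart from more mRNA per cell.

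The members' median was higher in the mutant in TL, TC and PL in each of the 3 pairs of plants grown at the same time. The median member difference between the rpl24b and the WT plant was 0.33, 0.47 and 0.60 in TC for replicates 1, 2 and 3, and 0.46, 0.56 and 0.59 in PL. In TL it was 0.51, 0.43 and 0.21, and in NP it was 0.00, 0.20 and 0.32. The median TL of members was 0.83, 0.78 and 0.74 in rpl24b plants, against 0.30, 0.33 and 0.56 in WT plants, while the median over all probe sets stayed between -0.05 and 0.15 in the same 6 plants. All 3 mutant values lay above all 3 WT values in TL for 32 members (7.08% of all probe sets), and in TC for 46 members (18.5% of all probe sets). In TC the exceptions were RPL8B, RPL10aC, RPL11A and RPL23C.

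The TL calls were near the threshold. Over the members, 24 of 50 had an unadjusted limma p under 0.05 in either direction, as did 2839 of all 22746 probe sets. With replicate number as a block, the adjusted p was 0.05 for RPL5A, 0.0647 for RPL10aC and 0.089 for RPL7aA, so that 0 of 50 passed. Leaving out any 1 plant left 0 calls, except without WT replicate 2, where RPL10aC passed (adjusted p = 0.0414). After centring of the arrays on their medians, which gave a median TL change of 0.05 over all probe sets in place of -0.06, 6 passed. Centring shifts all probe sets of an array alike, so the members' median stood 0.45 above that of all probe sets both ways by construction. After quantile normalization it stood 0.33 above. The TC count was 12 without WT replicate 2, 19 without rpl24b replicate 3 and 21 without WT replicate 3. The NP count was 3 when replicate 2 or 3 of rpl24b or replicate 3 of WT was left out, and centring gave an NP split of 5 up and 1 down in place of 6 up and 0 down, RPL5A being the one that fell (-0.67 ± 0.19, SE, adjusted p = 0.046). With any 1 plant left out, 34 to 39 members passed in PL.

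**Figure D1:**
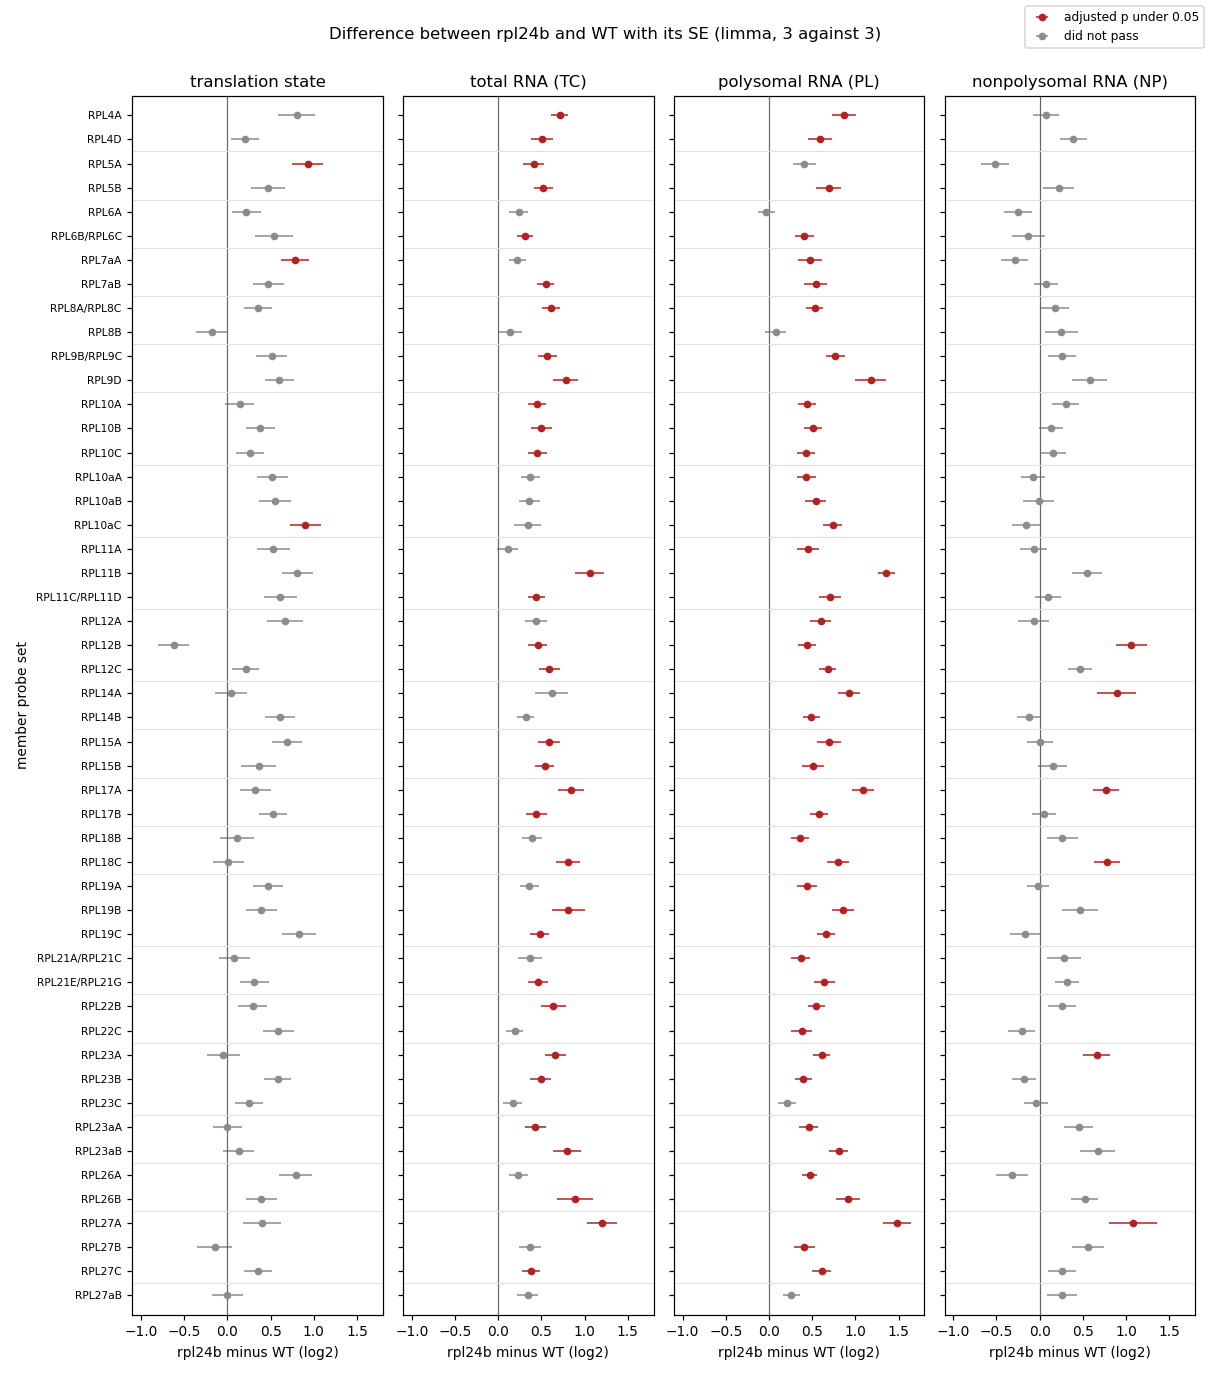
Changes of the 50 member probe sets (rows, by family) as rpl24b minus WT on the log2 scale, in translation state, total RNA, polysomal RNA and nonpolysomal RNA. Points are limma estimates from 3 rpl24b and 3 WT samples, bars are SE, and red marks adjusted p under 0.05. Nearly all points of TC and PL lie right of 0, with 32 and 45 in red, while TL has 3 and NP has 6 in red.

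L5 and L11 join the 5S rRNA to form the 5S particle that docks onto the growing 60S subunit, and all 5 probe sets of both families had a higher mean TL in the mutant, of which 1 passed. RPL5A (AT3G25520) had a TL of 1.36, 1.22 and 1.37 in rpl24b plants, against 0.42, 0.10 and 0.63 in WT plants. No value overlapped, and the change was 0.93 ± 0.18 (SE, adjusted p = 0.0381), the highest of all members. Its NP signal was 8.83, 8.99 and 9.20 in rpl24b plants, against 9.60, 9.67 and 9.30 in WT plants, and its PL signal was 10.19, 10.21 and 10.57 in rpl24b plants, against 10.02, 9.78 and 9.93 in WT plants. The NP signal was thus lower in every mutant plant than in any WT plant, although neither fraction passed on its own (adjusted p = 0.0875 in NP and 0.0524 in PL). Its paralog RPL5B (AT5G39740) had a mean TL of 1.73 ± 0.10 in rpl24b plants and 1.26 ± 0.37 in WT plants (SD, n = 3 each). The TL change of RPL5B was 0.47 ± 0.20 (SE, adjusted p = 0.375). In TC RPL5B rose by 0.52. RPL5A had a TC change of 0.41 (limma, adjusted p = 0.0488), a call lost after centring (adjusted p = 0.0695), in 1 fit over the 6 groups (0.0588), and without rpl24b replicate 2 (0.114), rpl24b replicate 3 (0.129), WT replicate 1 (0.142) or WT replicate 2 (0.151).

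Of the L11 family RPL11B (AT3G58700) moved most. Its TC signal was 9.56, 9.22 and 9.91 in rpl24b plants, against 8.66, 8.34 and 8.52 in WT plants, which is 2.08-fold higher in the mutant, a change of 1.06 ± 0.17 (SE, adjusted p = 0.00446). In PL the values were 10.21, 10.19 and 10.36 in rpl24b plants, against 8.96, 8.82 and 8.88 in WT plants, and the change of 1.36 ± 0.10 (SE, adjusted p = 1.94e-05) had the lowest adjusted p of any member in any fraction. Mutant and WT values did not overlap in either preparation. The TL of RPL11B was 0.24, 0.36 and 0.46 in rpl24b plants, against -0.73, -0.43 and -0.23 in WT plants, with no overlap but short of the threshold (0.81 ± 0.18, SE, adjusted p = 0.069), which it did pass once arrays were centred on their medians. RPL11A (AT2G42740), in contrast, had among the smallest TC changes, with signals of 7.49, 7.50 and 7.82 in rpl24b plants, against 7.40, 7.55 and 7.51 in WT plants and a change of 0.11 ± 0.12 (SE, adjusted p = 0.573). These values overlap. The shared probe set of RPL11C and RPL11D (AT4G18730 and AT5G45775) rose by 0.44 in TC and by 0.71 in PL, with a TL change of 0.61 ± 0.19 (SE, adjusted p = 0.182).

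L4, L17, L23a and L26 line or surround the tunnel through which the new peptide leaves the subunit. RPL4A (AT3G09630) had a TL of 1.06, 1.09 and 1.66 in rpl24b plants, against 0.50, 0.22 and 0.70 in WT plants, without overlap and with a change of 0.80 ± 0.21 (SE, adjusted p = 0.121). The TL of RPL4D (AT5G02870) was 1.30, 1.38 and 1.41 in rpl24b plants, against 1.18, 1.08 and 1.24 in WT plants, a narrow gap of 0.20 ± 0.16 (SE, adjusted p = 0.662). RPL4D was thus the better loaded paralog in WT, and the means of both lay close together in the mutant. Both mRNAs rose in TC, by 0.71 for RPL4A and 0.51 for RPL4D.

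RPL17A (AT1G27400) rose in all 3 preparations. Its TC signal was 9.79, 9.76 and 10.25 in rpl24b plants, against 9.12, 8.95 and 9.22 in WT plants (0.84 ± 0.15, SE, adjusted p = 0.00643), and its PL signal was 10.72, 10.63 and 10.90 in rpl24b plants, against 9.44, 9.76 and 9.79 in WT plants (1.09 ± 0.13, SE, adjusted p = 0.00035). In NP it changed by 0.77 ± 0.15 (SE, adjusted p = 0.0105). As PL and NP both rose, its TL change was only 0.32 ± 0.18 (SE, adjusted p = 0.515). RPL17B (AT1G67430) rose by 0.44 in TC and 0.58 in PL, with a TL change of 0.53 ± 0.16 (SE, adjusted p = 0.186) and an NP change of 0.05 ± 0.14 (SE, adjusted p = 0.872).

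RPL26B (AT5G67510) was among the highest TC changes, with 8.93, 8.96 and 9.72 in rpl24b plants, against 8.32, 8.11 and 8.52 in WT plants, a change of 0.89 ± 0.21 (SE, adjusted p = 0.022). Replicate 3 of the mutant was its highest value, and all mutant values exceeded those of WT, while its TL change was 0.39 ± 0.18 (SE, adjusted p = 0.411). RPL26A (AT3G49910) passed in neither, with a TL change of 0.79 ± 0.19 (SE, adjusted p = 0.0887) and a TC change of 0.23 ± 0.11 (SE, adjusted p = 0.208). In PL it rose by 0.47 ± 0.09 (SE, limma, adjusted p = 0.00719). RPL23aB (AT3G55280) had 1 of the 3 highest TL means in WT, with TL values of 1.61, 1.51 and 1.18 in rpl24b plants, against 1.10, 1.42 and 1.38 in WT plants. These overlap, and the change was 0.13 ± 0.18 (SE, adjusted p = 0.814), while in TC the mRNA rose by 0.80. RPL23aA (AT2G39460), the paralog that plants depend on more, rose by 0.43 in TC with a TL change of 0.00 ± 0.17 (SE, adjusted p = 0.998).

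L12 and L9 sit at the base of the stalk that recruits translation factors, and L10a forms the mobile arm at the other side of the subunit. L12 had the widest spread of TL changes of all families. For RPL12A (AT2G37190) the TL was 0.55, 0.41 and 0.84 in rpl24b plants, against -0.32, -0.25 and 0.34 in WT plants (0.67 ± 0.21, SE, adjusted p = 0.189), and for RPL12B (AT3G53430) it was 0.61, 0.58 and 0.50 in rpl24b plants, against 0.88, 1.42 and 1.23 in WT plants (-0.62 ± 0.18, SE, adjusted p = 0.171). Both pairs of groups are free of overlap, in opposite directions, and neither change passed. RPL12B was the single member whose mutant TL values all lay below those of WT. Its NP signal was 11.16, 11.33 and 11.46 in rpl24b plants, against 10.58, 10.00 and 10.20 in WT plants, a rise of 1.06 ± 0.18 (SE, adjusted p = 0.00585) that no other member exceeded except RPL27A, against a PL change of 0.44 ± 0.10 (SE, adjusted p = 0.0122). RPL12B lies on chromosome 3 as RPL24B does, with 53 annotated genes (TAIR10.1) between them. RPL12C (AT5G60670) had TL values of 0.04, 0.01 and 0.02 in rpl24b plants, against -0.25, -0.24 and -0.07 in WT plants, close to 0 in both genotypes (0.21 ± 0.16, SE, adjusted p = 0.645), and rose by 0.59 in TC.

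RPL9D (AT4G10450) passed 2-fold in PL, with 9.02, 9.02 and 9.62 in rpl24b plants, against 8.22, 7.77 and 8.13 in WT plants, a change of 1.18 ± 0.18 (SE, adjusted p = 0.00159). Its TC change was 0.78 ± 0.14 (SE, adjusted p = 0.00755) and its TL change 0.60 ± 0.17 (SE, adjusted p = 0.159). The shared probe set of RPL9B and RPL9C (AT1G33140 and AT1G33120) moved likewise but less, by 0.77 in PL and 0.57 in TC, both past the test, with a TL change of 0.51 ± 0.18 (SE, adjusted p = 0.268). All 3 L10a mRNAs had higher TL values in every mutant plant than in any WT plant. RPL10aC (AT5G22440) passed the test, with a TL of 0.67, 0.34 and 0.53 in rpl24b plants, against -0.54, -0.42 and -0.21 in WT plants, a change of 0.90 ± 0.18 (SE, adjusted p = 0.0371). Its TC signal overlapped between genotypes, 8.83, 9.05 and 9.35 in rpl24b plants, against 8.85, 8.51 and 8.87 in WT plants (0.34 ± 0.16, SE, adjusted p = 0.191), so TL moved here without a called change in TC. RPL10aA (AT1G08360) was poorly loaded, with TL values of -0.12, -0.10 and 0.06 in rpl24b plants, against -0.81, -0.42 and -0.48 in WT plants (0.52 ± 0.18, SE, adjusted p = 0.238). RPL10aB (AT2G27530), known as PIGGYBACK1 from its leaf mutant, had mean TL values of 1.00 ± 0.15 in rpl24b plants and 0.46 ± 0.24 in WT plants (SD, n = 3 each), a change of 0.55 ± 0.18 (SE, adjusted p = 0.231). None of the L10a members passed in TC, with changes of 0.34 to 0.37, and all 3 rose in PL.

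L8 and L10 reach toward the centre where peptide bonds are made, and L19 and L23 face the small subunit, L19 with a bridge to it as L24 itself has. The 3 L10 mRNAs, RPL10A (AT1G14320), RPL10B (AT1G26910) and RPL10C (AT1G66580), were the closest to each other in WT of any family with several probe sets, with TL means of 0.66 to 0.70 in WT plants. Their TL changes were 0.14, 0.38 and 0.26, none of which passed, and all 3 rose in TC by 0.45 to 0.50. The probe set of RPL8A and RPL8C (AT2G18020 and AT4G36130) rose by 0.61 in TC and 0.53 in PL, with a TL change of 0.35 ± 0.16 (SE, adjusted p = 0.418). RPL8B, with TC signals of 4.09, 3.86 and 3.79 in rpl24b plants, against 3.61, 3.67 and 4.04 in WT plants, lay below the median signal over all probe sets (5.38) in both genotypes. No fraction passed for it, and its TL of -0.20, -0.38 and 0.22 in rpl24b plants, against 0.01, 0.11 and 0.04 in WT plants overlapped between genotypes (-0.18 ± 0.19, SE, adjusted p = 0.75).

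In the L23 family no member passed in TL. RPL23A (AT1G04480) had TL values of 0.10, -0.19 and -0.18 in rpl24b plants, against -0.25, -0.13 and 0.25 in WT plants (-0.05 ± 0.19, SE, adjusted p = 0.941), yet rose in TC (0.66 ± 0.12, SE, adjusted p = 0.00747), PL (0.61 ± 0.10, SE, adjusted p = 0.00292) and NP (0.66 ± 0.16, SE, adjusted p = 0.0298) by about the same amount. For RPL23B (AT2G33370) the TL was 0.59, 0.51 and 0.58 in rpl24b plants, against -0.16, 0.05 and 0.06 in WT plants, without overlap (0.58 ± 0.16, SE, adjusted p = 0.149), and TC rose by 0.49. RPL23C had TL values of 0.15, -0.08 and 0.01 in rpl24b plants, against -0.26, -0.23 and -0.19 in WT plants (0.25 ± 0.16, SE, adjusted p = 0.576) and TC signals of 12.04, 12.06 and 12.24 in rpl24b plants, against 12.09, 11.85 and 11.88 in WT plants (0.17 ± 0.11, SE, adjusted p = 0.348). It was thus among the members that moved least in TC.

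L19 had the widest spread of TL in WT. RPL19B (AT3G16780) had the highest WT mean of all members, with TL values of 1.96, 1.70 and 1.77 in rpl24b plants, against 1.18, 1.69 and 1.40 in WT plants (0.39 ± 0.18, SE, adjusted p = 0.421), and RPL19C (AT4G02230) had the lowest, with 0.08, -0.28 and 0.34 in rpl24b plants, against -0.81, -0.92 and -0.62 in WT plants (0.83 ± 0.20, SE, adjusted p = 0.0819). RPL19A (AT1G02780) lay between them, with 0.76, 0.90 and 1.13 in rpl24b plants, against 0.57, 0.36 and 0.47 in WT plants (0.47 ± 0.17, SE, adjusted p = 0.283). The order was the same in all 6 plants. Every mutant TL value of RPL19C exceeded every WT value, with PL changed by 0.66 ± 0.10 (SE, adjusted p = 0.00182) and NP by -0.17 ± 0.17 (SE, adjusted p = 0.618). In TC RPL19B rose by 0.81 and RPL19C by 0.48, and RPL19A changed by 0.36 ± 0.11 (SE, adjusted p = 0.0527).

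The other families lie mostly at the surface of the subunit or buried in its rRNA. RPL7aA (AT2G47610) was the third member to pass in TL and is named for that, after its values were seen. Its TL was 2.06, 2.08 and 2.04 in rpl24b plants, against 1.33, 1.22 and 1.30 in WT plants, a change of 0.78 ± 0.16 (SE, adjusted p = 0.0458), and the mutant values were the highest of any member. In TC it changed by 0.22 ± 0.10 (SE, adjusted p = 0.21). RPL7aB (AT3G62870) had a lower TL, 0.54 ± 0.22 in rpl24b plants and 0.07 ± 0.15 in WT plants (SD, n = 3 each), and rose in TC by 0.55, with a TL change of 0.47 ± 0.18 (SE, adjusted p = 0.302). RPL6A was among the best loaded in WT, with TL values of 1.66, 1.74 and 1.37 in rpl24b plants, against 1.34, 1.44 and 1.32 in WT plants (0.22 ± 0.17, SE, adjusted p = 0.647). It had the only negative PL change of the members (-0.03 ± 0.10, SE, adjusted p = 0.898). The probe set of RPL6B and RPL6C (AT1G74060 and AT1G74050) rose by 0.31 in TC, with a TL change of 0.54 ± 0.22 (SE, adjusted p = 0.332).

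Of the L14 family, RPL14A (AT2G20450) had TL values of 0.81, 0.80 and 0.39 in rpl24b plants, against 0.36, 0.78 and 0.71 in WT plants (0.04 ± 0.19, SE, adjusted p = 0.945) and rose in PL and NP alike, by 0.93 and 0.89. RPL14B (AT4G27090), one of the 3 lowest WT means, had TL values of 0.00, -0.15 and -0.11 in rpl24b plants, against -0.81, -0.75 and -0.53 in WT plants (0.61 ± 0.17, SE, adjusted p = 0.133) and rose in PL by 0.49, with an NP change of -0.12 ± 0.14 (SE, adjusted p = 0.683). The difference between the NP changes of both was not tested. RPL27A (AT2G32220) had the largest changes of all members in TC, PL and NP, at a low signal. Its mean TC signal in WT plants was 5.31, below the median signal over all probe sets (5.38), and it was 6.51 in rpl24b plants. Its TC signal was 6.36, 6.34 and 6.82 in rpl24b plants, against 5.53, 5.05 and 5.36 in WT plants, 2.29-fold higher in the mutant (1.20 ± 0.17, SE, adjusted p = 0.00208), and its NP signal was 5.87, 6.02 and 6.93 in rpl24b plants, against 5.57, 4.94 and 5.08 in WT plants (1.08 ± 0.28, SE, adjusted p = 0.0387). In PL the change was 1.48 ± 0.16 (SE, adjusted p = 0.000211). Its TL overlapped between genotypes, 1.56, 1.40 and 0.68 in rpl24b plants, against 0.79, 0.75 and 0.89 in WT plants (0.40 ± 0.22, SE, adjusted p = 0.508), with mutant replicate 3 apart from the other two. RPL27B (AT3G22230) had negative TL values in all 6 plants, -0.36, -0.60 and -0.93 in rpl24b plants, against -0.49, -0.68 and -0.28 in WT plants (-0.15 ± 0.20, SE, adjusted p = 0.802), and RPL27C (AT4G15000) had positive ones, 1.30, 1.23 and 1.13 in rpl24b plants, against 0.81, 0.81 and 0.98 in WT plants (0.35 ± 0.16, SE, adjusted p = 0.411).

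Among the remaining families, RPL15A (AT4G16720) and RPL15B (AT4G17390) rose in TC by 0.59 and 0.54, with TL changes of 0.69 ± 0.17 (SE, adjusted p = 0.104) and 0.36 ± 0.20 (SE, adjusted p = 0.499). RPL18C (AT5G27850) rose in TC, PL and NP by 0.81, 0.80 and 0.78, and its TL change was 0.01 ± 0.18 (SE, adjusted p = 0.983). RPL18B (AT3G05590) rose in PL alone, by 0.36, with a TL change of 0.11 ± 0.20 (SE, adjusted p = 0.864). The probe set of RPL21E and RPL21G (AT1G57660 and AT1G57860) rose in TC by 0.46, with a TL change of 0.31 ± 0.17 (SE, adjusted p = 0.493). That of RPL21A and RPL21C (AT1G09690 and AT1G09590) changed in TC by 0.37 ± 0.14 (SE, adjusted p = 0.104) and in TL by 0.08 ± 0.18 (SE, adjusted p = 0.889). RPL22B (AT3G05560) rose in TC by 0.64, with a TL change of 0.29 ± 0.17 (SE, adjusted p = 0.536). RPL22C (AT5G27770) had TC signals of 9.56, 9.59 and 9.84 in rpl24b plants, against 9.51, 9.43 and 9.47 in WT plants (0.19 ± 0.10, SE, adjusted p = 0.264), a gap without overlap that did not pass, and a TL change of 0.59 ± 0.18 (SE, adjusted p = 0.171). RPL27aB had a TL change of 0.00 ± 0.18 (SE, adjusted p = 0.998) and a TC change of 0.34 ± 0.12 (SE, adjusted p = 0.0996). Counted by family, every probe set passed in TC in 7 families, some but not all in 12, and none in 3 (L10a, L14 and L27a), while every probe set passed in PL in 17 families.

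**Figure D2:**
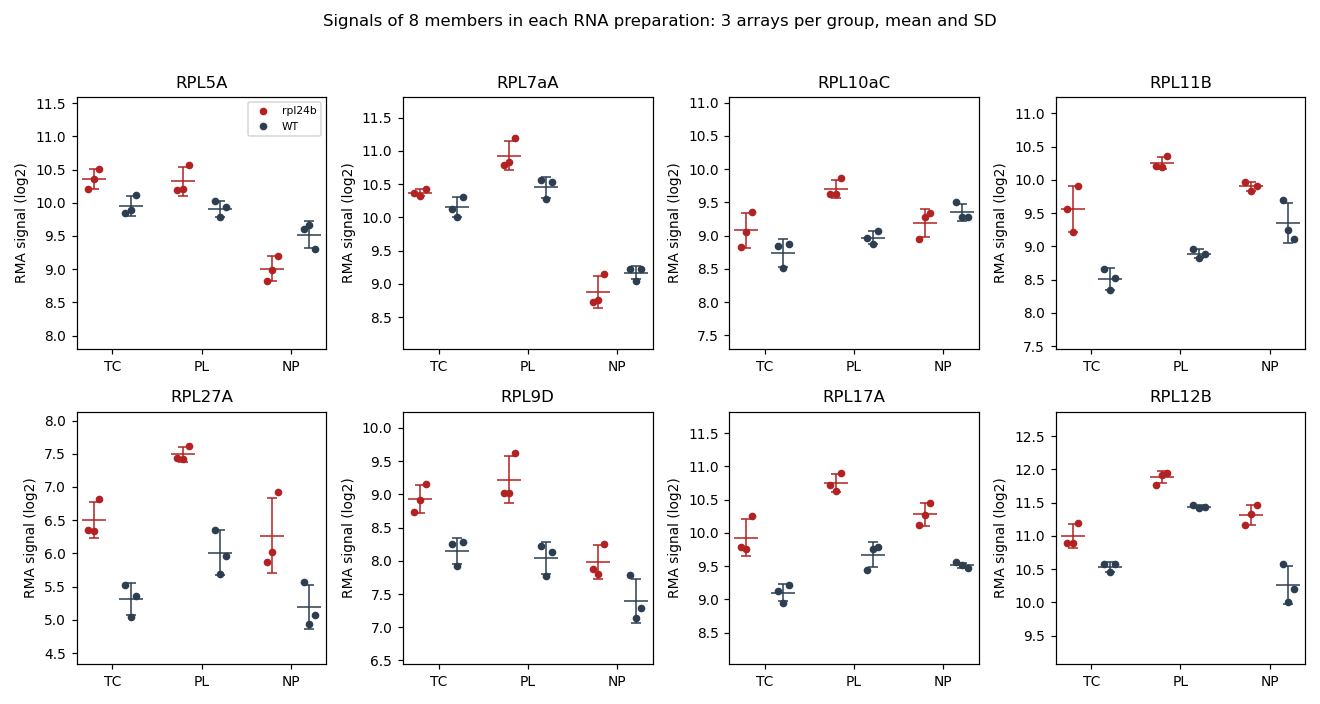
Log2 RMA signals of 8 members in total (TC), polysomal (PL) and nonpolysomal (NP) RNA, with rpl24b in red to the left of WT in dark blue. Points are the 3 arrays of a group, and bars are mean and SD. In RPL5A the mutant is higher in PL and lower in NP, in RPL27A and RPL17A it is higher in all 3 preparations, and in RPL12B the widest gap is in NP.

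Within each genotype the TL of a member shows whether its mRNA was more in PL or in NP, relative to a level of 0 that the normalization sets. In rpl24b plants 40 of 50 members lay above 0 (adjusted p under 0.05) and 1 below, where 18.8% of all probe sets lay above and 18.3% below. In WT plants 27 lay above and 6 below, where the shares of all probe sets were 19.1% and 15.2%. All 27 of those above 0 in WT were also above 0 in rpl24b. A further 13 passed in rpl24b and not in WT, which is no test of a difference, and RPL10aC alone of these passed in TL between genotypes. These counts use the same plants as the TL changes. The 6 below 0 in WT were RPL10aA, RPL10aC, RPL11B, RPL14B, RPL19C and RPL27B, and of these RPL27B alone passed below 0 in rpl24b as well. The count below 0 in WT was 3 without WT replicate 1, 4 without WT replicate 2 and 8 after quantile normalization. The highest means in WT were those of RPL19B, RPL6A and RPL23aB (1.43, 1.37 and 1.30), and the lowest those of RPL19C, RPL14B and RPL10aA (-0.78, -0.70 and -0.57). Members therefore spanned 2.69 log2 units from lowest to highest in rpl24b and 2.21 in WT.

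The order of members was largely shared by both genotypes. Across the 50 probe sets, mean TL in rpl24b and in WT had a Pearson r of 0.85, a description over genes, which are not independent replicates and share their arrays. The SD of mean TL over members was 0.56 in rpl24b and 0.57 in WT, so the mutant was shifted upward with about the same spread.

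**Figure D3:**
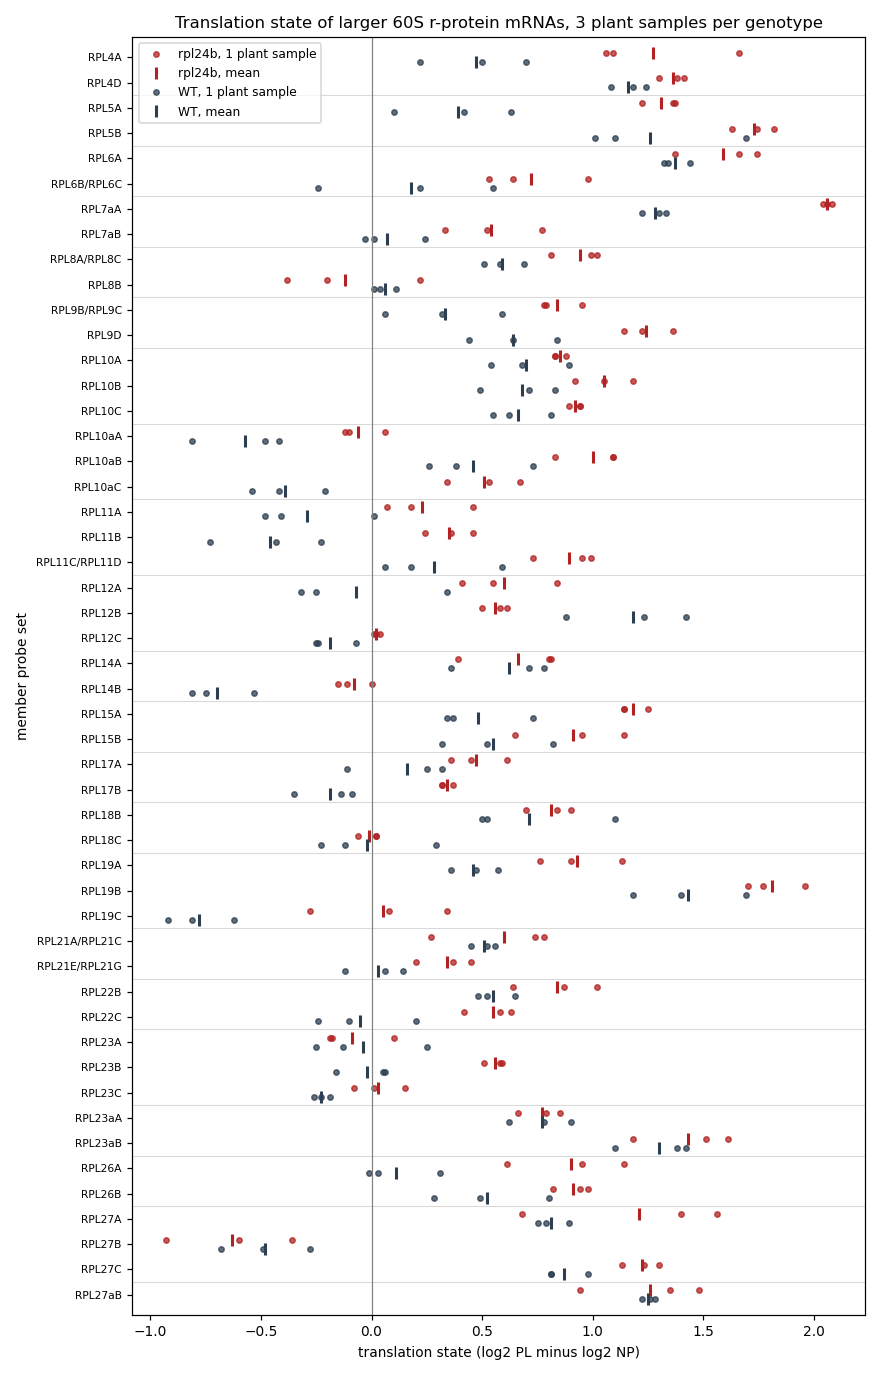
Translation state (log2 PL minus log2 NP, horizontal axis) of the 50 member probe sets, grouped by family, with rpl24b in red above WT in dark blue in each row. Points are plant samples and ticks are means of 3. For 32 members all red points lie right of all blue points, and RPL12B is the row in which they all lie left.

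Paralogs of a family encode nearly the same protein, so the difference in TL between them sets apart mRNAs rather than proteins. Adding a constant to a whole array leaves it as it is, while other normalizations were not tried on it. The 21 families with more than 1 probe set gave 35 pairs. In 22 pairs the same paralog was the better loaded in all 6 plants. The difference between paralogs did not overlap between genotypes in 18 of 35 pairs, and in the pairs of the other r-protein families of the catalogue this held for 73 of 178 (41.0%). By an exact permutation test (two-sided, 3 against 3), no p can be lower than 0.1, and the smallest adjusted p over the 35 pairs was 0.194, so no pair could pass.

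The widest shift was in L12. RPL12A minus RPL12B was -0.06, -0.17 and 0.34 in rpl24b plants, against -1.20, -1.67 and -0.89 in WT plants, so the clear order of WT was gone in the mutant. RPL12B minus RPL12C was 0.57, 0.58 and 0.47 in rpl24b plants, against 1.13, 1.67 and 1.30 in WT plants. RPL23A minus RPL23B was -0.49, -0.70 and -0.76 in rpl24b plants, against -0.09, -0.18 and 0.19 in WT plants, near 0 in WT and negative in the mutant. RPL4A minus RPL4D was -0.24, -0.29 and 0.25 in rpl24b plants, against -0.68, -0.86 and -0.54 in WT plants, and RPL14A minus RPL14B was 0.80, 0.95 and 0.50 in rpl24b plants, against 1.17, 1.53 and 1.25 in WT plants. Both of these gaps were narrower in the mutant. A wider gap was seen in L27, where RPL27A minus RPL27B was 1.92, 2.01 and 1.60 in rpl24b plants, against 1.29, 1.43 and 1.17 in WT plants. The differences of RPL19B minus RPL19C, 1.88, 1.98 and 1.42 in rpl24b plants, against 2.0, 2.61 and 2.02 in WT plants, were the widest of any pair in WT and lay above those of the mutant. In L10a, RPL10aA minus RPL10aB was -1.21, -0.94 and -1.03 in rpl24b plants, against -1.08, -1.15 and -0.86 in WT plants, which overlap.

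**Figure D4:**
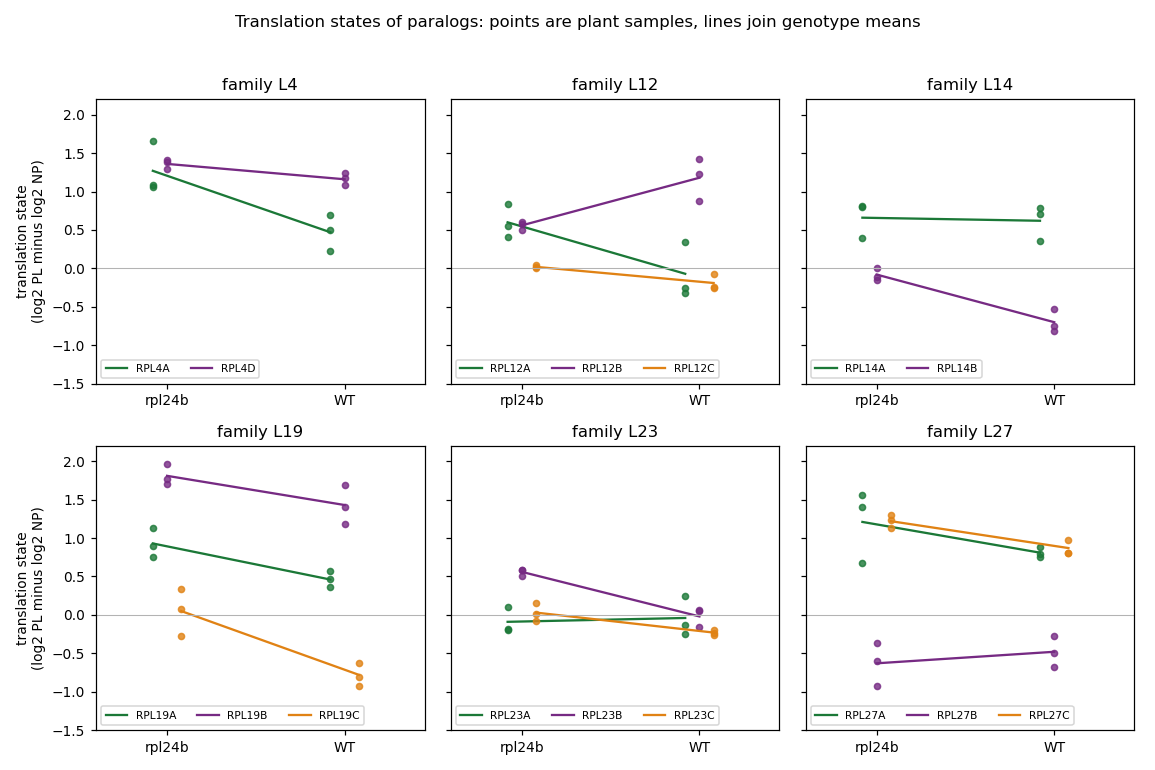
Translation state of the paralogs in 6 families, with rpl24b left and WT right. Points are plant samples and lines join the means of 3. RPL12B is the 1 line of L12 that is lower in rpl24b than in WT, and in L19 the order RPL19B, RPL19A, RPL19C is the same in both genotypes.

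Other r-protein mRNAs moved in the same direction in TC. Of the 64 other 60S probe sets 36 rose and 2 fell, of 16 stalk probe sets 9 rose and 1 fell, and of 86 of the 40S subunit 45 rose and 1 fell, with medians of 0.46, 0.48 and 0.38. The 32 of 50 members and their median of 0.45 are of the same size. In TL the means were higher in the mutant for 46 of 50 members, 41 of 64 other 60S, 10 of 16 stalk and 54 of 86 40S probe sets, with medians of 0.39, 0.11, 0.10 and 0.16. Calls in TL were 6 up and 2 down, 2 up and 0 down, and 7 up and 1 down in the other 60S, stalk and 40S groups. At 2-fold these were 6 up and 2 down, 1 up and 0 down, and 2 up and 1 down, against 0 for the members. The groups were not matched for signal. Of the members, 49 had a mean TC signal at or above the median of probe sets, and the other 60S group includes low-signal paralogs described below. The probe sets counted down in the other 60S group include RPL24B itself, whose mutant signals of 3.42 in PL and 3.89 in NP are of a gene that the mutant lacks. The difference between the members and these groups was not tested.

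Paralogs of the same families that are not members include RPL4B (AT1G35200), RPL5C (AT5G40130), RPL21F (AT3G57820), RPL22A (AT1G02830) and RPL27aA (AT1G12960). Their mean TC signals were 2.58 to 3.48 in rpl24b plants and 2.65 to 3.33 in WT plants, below the median signal of 5.38. None of these 5 passed in any fraction or in TL between genotypes. Their TC changes ran from -0.07 to 0.24, and their TL changes from -0.21 to 0.42.

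**Figure D5:**
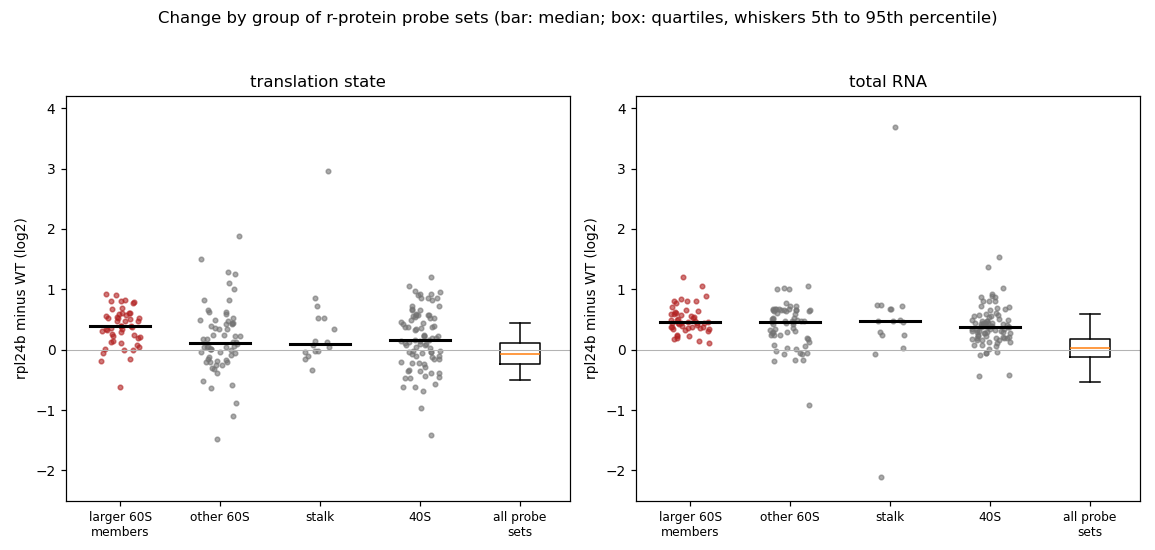
Changes (rpl24b minus WT, log2) in translation state and in total RNA for the 50 members, 64 other 60S, 16 stalk and 86 40S probe sets, each a point with the group's median as a bar, and for all 22746 probe sets as a box. In TL the members' median of 0.39 is above those of the other groups, and in TC the medians of the 4 groups lie between 0.38 and 0.48. The groups are not matched for signal. RPL24B, at -6.50 in total RNA, is beyond the axis.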

How the data were processed

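Aerial tissue of 3 plant samples per genotype gave polysomal, nonpolysomal and total RNA, hybridised to 18 ATH1 arrays. The authors normalized the arrays by RMA in R, and the deposited values are log2 signals per probe set. The versions are not given in the sources used here. Translation state was computed here as log2 PL minus log2 NP, and differed from the deposited translation states by at most 0.001. Genotypes were compared over all 22746 probe sets with limma 3.58.1 (R 4.3.3) and Benjamini-Hochberg adjustment at 0.05, 3 against 3, with no filter. Paralog pairs were compared by exact permutation (SciPy 1.17.1). The fits were tested on simulated data.

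The study grew mutant and WT together in each replicate, so replicate numbers pair the samples. Same-numbered deviations correlated at 0.14 to 0.39 in TC, 0.05 to 0.28 in PL, -0.19 to 0.06 in NP and -0.05 to 0.03 in TL. Samples were otherwise treated as separate.

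Members, lists and tests were chosen with earlier results of these data known. Per-sample values are given for members passing at 2-fold in any quantity, the 4 highest and 4 lowest changes in TL and TC, the 3 highest and 3 lowest TL in WT, and all paralogs of the 4 families with the widest range of TL change and the 3 with the widest range of WT TL. RPL7aA was added after its values were seen. Alternatives were another scaling, moderation, filter, threshold, block, joint fit and leaving out each replicate.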

Additional observations from a re-analysis of the deposited data

Results flagged for a closer look

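In 3 members the genotype effect differed between polysomal and nonpolysomal RNA by the limma test of that difference over all probe sets. The effect in PL minus that in NP was 0.93 for RPL5A, 0.90 for RPL10aC and 0.78 for RPL7aA, with all 3 rpl24b plants above all 3 WT plants in each. With replicate number as a block the adjusted p was 0.05, 0.0647 and 0.089, and over the alternatives tried it ranged from 0.00951 to 0.168 for RPL5A, 0.0119 to 0.181 for RPL10aC and 0.019 to 0.179 for RPL7aA.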

How the results depend on the processing

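Directions of member medians held in TL, TC, PL and NP under each scaling tried. Of 3 members passing in TL, requiring 2-fold or a replicate block left 0, quantile normalization 1 (RPL5A), and leaving out 1 replicate 0 to 1, while centring gave 6, probe sets at or above the median signal 7 and 1 fit over the 6 groups 10. The TC count of 32 was 2 at 2-fold, 38 with the replicate block and 12 to 29 with 1 replicate left out. The PL count of 45 was 4 at 2-fold, 46 with the block and 34 to 39 with 1 left out. The NP count of 6 was 2 at 2-fold, 5 with the block, 12 with trend and robust moderation, 14 in 1 fit over the 6 groups and 3 to 7 with 1 left out. In NP, centring gave 27 members with a higher mean and a median change of 0.05, against 34 and 0.20 as deposited. Members off 0 within rpl24b were 41, of them 15 at 2-fold and 36 to 41 with 1 left out, and within WT 33, of them 8 at 2-fold and 27 to 33 with 1 left out. Among all calls in TL the share of higher ones was 50.0% as deposited and 67.1% after centring, and in NP 60.6% and 40.1%.

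The TL change turned in 2 named members with values near 0. RPL23A (-0.05) was 0.07 after centring and -0.15 to 0.1 with 1 replicate left out, and RPL14A (0.04) was -0.06 after quantile normalization and -0.08 to 0.18 with 1 replicate left out. Of 434 alternative TL values of 29 named members, 392 kept direction and side of the threshold, 26 lost and 9 gained a call and 7 turned. Of 405 in TC, 338 kept both, 43 lost and 24 gained a call. The causes were not tested. Paralog pairs had no alternative, and 3 samples per group limit every test.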
